A study of Mus musculus with 5 samples.

Results

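The SLC25 family of mitochondrial solute carriers was examined in the livers of 5 mice given streptozotocin and bezafibrate. Members were all genes whose platform annotation gave a probe set exactly 1 symbol, beginning with Slc25a or Ucp and a digit, and the probe set with the highest mean stood for a gene with several. This gave 48 genes and 52 probe sets, out of 19938 genes named in the same way and 35556 probe sets in all. The rule itself uses symbols, and measured values only for that choice among probe sets. Ucp2 was not analysed here.

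All 5 mice were male wild-type C57BL/6N animals aged 5 to 6 months, and 1 array of total liver RNA was measured per mouse. Each had been injected with streptozotocin, a compound toxic to pancreatic beta cells, at 65 mg/kg on 5 consecutive days at 10 to 16 weeks of age. Bezafibrate, a lipid-lowering fibrate and agonist of the peroxisome proliferator-activated receptors (PPARs), was then fed for 8 weeks from 2 weeks after the injections, at 0.25% or 0.5% of the chow by weight. Which amount a mouse received is not given per mouse. All mice share both compounds, so the data hold no contrast of treatment. They give the level of each carrier gene in doubly treated livers and its spread between mice, and effects of bezafibrate amount or age cannot be told apart from other variation among these animals.

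SLC25 carriers are small proteins of the inner mitochondrial membrane, built from a repeated unit, that exchange ADP for ATP and move phosphate, carboxylates, amino acids, acylcarnitines, cofactors and ions between cytosol and matrix. The uncoupling proteins belong to the same family. In liver, these carriers link the matrix to gluconeogenesis, the urea cycle, lipid synthesis and fatty acid oxidation. The genes of the carnitine/acylcarnitine carrier (Slc25a20) and of Ucp3 are known targets of PPARA in mice.

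Values are log2 RMA signals, where 1 unit stands for a doubling of signal, and levels of different genes were not compared because probe sets differ in their response. A brightness floor was set on each array at the 95th percentile of 1210 olfactory and vomeronasal receptor probe sets, which liver is not known to express, and it lay between 5.59 and 6.07. Mouse 4 had the highest floor, and 36.5% of all 13336 tested genes were lowest on its array. Array medians lay between 6.22 and 6.31. The liver label was checked on hepatocyte markers, of which 7 of 7 measured exceeded the floor in every mouse, and their mean deviation from the 5-mouse mean stayed between -0.07 and 0.04. In whole liver, fewer cells of a type and less RNA per cell cannot be told apart.

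Of the 48 carrier genes, 38 (79.2%) exceeded the floor in all 5 livers, compared with 60.0% of all 19938 genes. Another 4 did so in some livers, namely Slc25a18 (4 livers), Slc25a24 and Slc25a41 (3 each) and Slc25a27 (2). The remaining 6 stayed at or below the floor in every liver. They were Ucp1, the uncoupling protein of brown fat, Slc25a31, the ADP/ATP carrier of male germ cells, the ornithine carrier relative Slc25a2, the brain-expressed Slc25a14, and Slc25a53 and Slc25a54, whose roles are not described here. Ucp1 had values of 4.80, 4.72, 4.82, 4.51 and 4.71 in mice 1 to 5. Among adipocyte markers, Adipoq (3.86 to 4.14) and Lep (4.995 to 5.42) were likewise below the floor in all mice. In contrast, 2 of the 5 measured markers of that list exceeded it in all mice, Cidea (11.58 to 11.87) and Plin1 (6.16 to 6.54). Retn (5.93 to 6.26) did so in 4 mice. The mean level of the 5 lay between 6.64 and 6.76, with Cidea far above the others.

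Between the highest and the lowest mouse, 35 of 40 tested members (87.5%) spanned less than 1.5-fold, against 92.1% of all tested genes, and 0 of the 40 had a variance above that expected at its level at an adjusted p of 0.05. Tested were probe sets whose mean lay above 5.77, by an F test on limma's robust variance fit with Benjamini-Hochberg adjustment over 14586 probe sets, of which 52 (0.357%) were called. At an unadjusted p under 0.05 stood 5 of the 40 members (12.5%), namely Slc25a4, Ucp3, Slc25a45, Slc25a30 and Slc25a15, against 6.34% of all probe sets tested. The median SD was 0.14 for the 40 members and 0.12 for the 13336 tested genes. The SD exceeded the one expected at the gene's level for 29 of the 40 members (72.5%), against 47.0% of tested genes. The median span, highest over lowest mouse, was 1.25-fold for members and 1.22-fold for tested genes. Slc25a4 was the 1 member that spanned more than 2-fold. The mice are labelled as biological replicates, and the spread includes technical spread because no array was repeated.

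**Figure D1:**
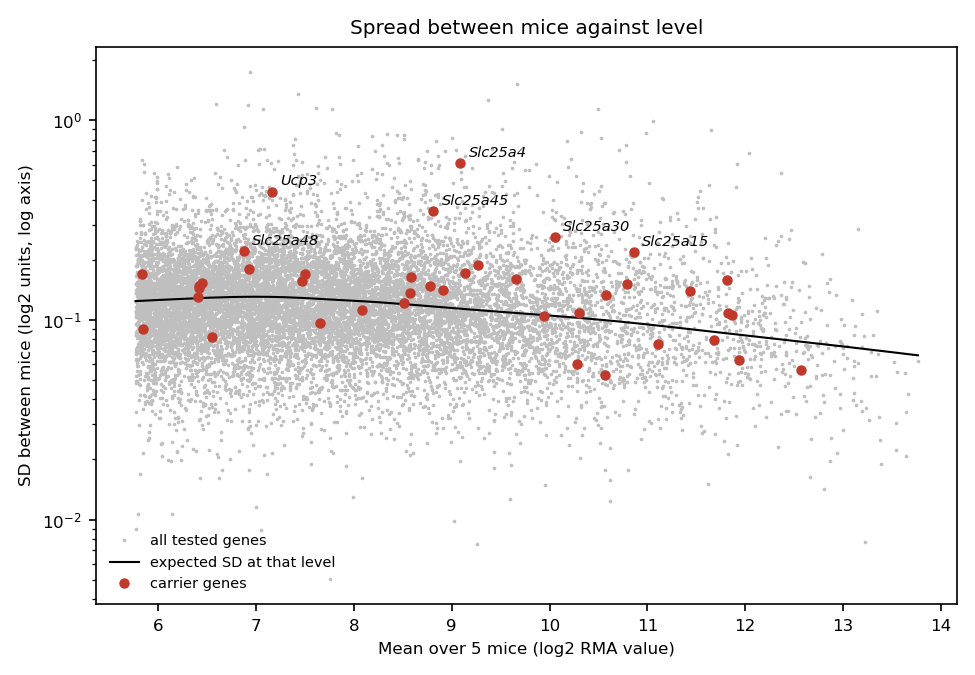
Standard deviation between the 5 mice (log2 units, log axis) against the mean log2 RMA value, for all tested genes (grey) and the 40 tested carrier genes (red), with the SD expected at each level as a black line. Slc25a4, at an SD of 0.61, and Ucp3, at 0.44, lie farthest above the line among the carriers, and Slc25a13, at 0.05, is the least variable carrier.

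Slc25a4, the ADP/ATP carrier known mainly from heart and skeletal muscle (ANT1), varied most among the carriers. It had values of 8.73, 8.94, 8.37, 9.50 and 9.895 in mice 1 to 5 (probe set 10578539). Mice 4 and 5 were high and mouse 3 low, a 2.88-fold span. Its mean was 9.09 ± 0.61 (SD, n = 5), and its SD was 5.37 times the expected SD and above that of 99.5% of tested genes. The unadjusted p was 0.000385 and the limma adjusted p 0.076, so it missed the threshold. With each array centred on its median it passed (limma adjusted p = 0.0178), in a fit that called 0.974% of probe sets. Over the other alternatives its limma adjusted p lay between 0.0522 and 0.421. Leaving out any 1 mouse gave SDs of 0.47 (without mouse 5) to 0.70 (without mouse 2).

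Slc25a5, the ADP/ATP carrier that predominates in mouse liver (ANT2), had 12.55, 12.65, 12.51, 12.54 and 12.60 in mice 1 to 5. These values lie within a 1.10-fold span, and the SD of 0.06 was below that of all but 8.6% of tested genes. Against the SD expected at its level it was 0.72 times as large. The gene has 3 probe sets, with spans of 1.09-fold to 1.10-fold, and near-identical copies elsewhere in the genome may share their probes. The highest values on the arrays were 14.00 to 14.12, and whether bright signals were compressed was not tested. Slc25a3, the phosphate carrier that supplies ATP synthase together with these exchangers, was as even, with 11.90, 11.97, 11.87, 11.90 and 12.03 (SD 0.06, and 0.04 without mouse 5). Its SD was 0.75 times the expected one. Thus the muscle-type ADP/ATP carrier gene had a wide spread in the same 5 livers in which the liver-type gene and the phosphate carrier gene had narrow ones. The expected SD was also lower at the levels of Slc25a5 and Slc25a3 (0.08 each) than at that of Slc25a4 (0.11). The difference between the variances of these genes was not tested.

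Skeletal muscle markers were set beside Slc25a4. Of 8 markers measured, 5 exceeded the floor in all mice and Myh4 and Mylpf in none. The mean level of the 8 lay between 6.03 and 6.64. The mean deviation of the 5 tested markers was 0.56, -0.25, -0.07, -0.04 and -0.20 in mice 1 to 5, highest in mouse 1, while Slc25a4 was highest in mouse 5 (0.81 above its mean) and was 0.36 below its mean in mouse 1. Without mouse 1 the SD of Slc25a4 was 0.67, against 0.61 with all mice. The part of muscle tissue in its spread was not tested.

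**Figure D2:**
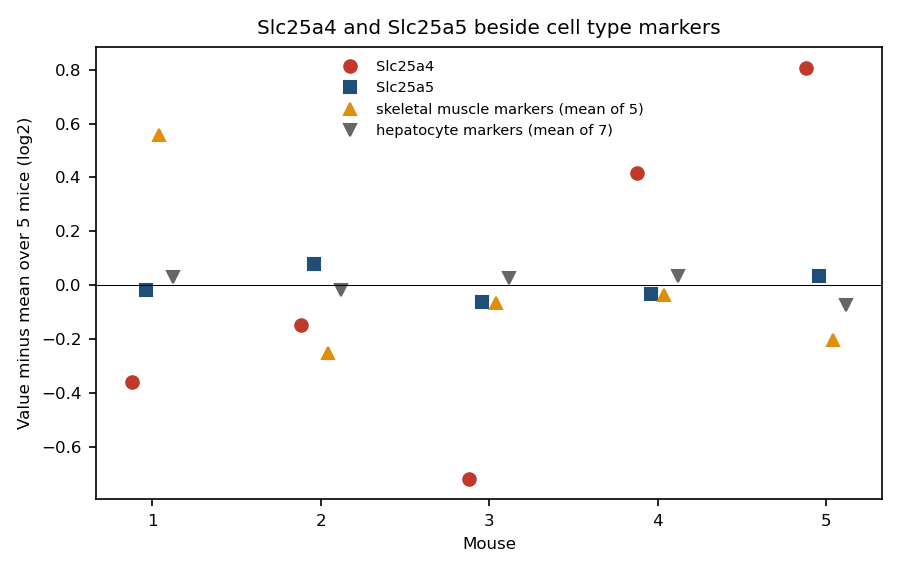
Deviation from the 5-mouse mean (log2) in each mouse for Slc25a4, Slc25a5, the mean of 5 skeletal muscle markers and the mean of 7 hepatocyte markers. Slc25a4 is high in mice 4 and 5, the muscle markers are high in mouse 1, and Slc25a5 stays close to its mean in all mice.

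Among uncoupling proteins and their relatives, both tested members were highest in mouse 2. Ucp3, a fatty acid-responsive relative of Ucp1 known mainly from muscle, had 7.54, 7.73, 6.80, 6.78 and 6.97 in mice 1 to 5 (probe set 10555378). Mice 1 and 2 were high and the others lay close together, a 1.93-fold span with a mean of 7.16 ± 0.44 (SD, n = 5). Its SD was 3.37 times the expected one (limma adjusted p = 0.282) and did not fall below 0.35 when a mouse was left out. The value of Ucp3 in mouse 4 was below a stricter floor, the 99th percentile of the receptor probe sets (6.86 in that mouse). The muscle markers named above were high in mouse 1 and low in mouse 2 (-0.25), whereas Ucp3 was high in both. Their part in the value of mouse 1 was not tested. Slc25a30, a carrier first described in kidney, had 9.91, 10.51, 9.98, 9.85 and 10.03 in mice 1 to 5. Mouse 2 stood above the others, and without it the SD was 0.08 instead of 0.26 (limma adjusted p = 0.602 with all mice).

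Fatty acids enter the matrix as acylcarnitines through Slc25a20, which had 11.76, 12.06, 11.75, 11.89 and 11.64 in mice 1 to 5 (probe set 10589076). Mouse 2 was highest and mouse 5 lowest, a 1.33-fold span (SD 0.16, limma adjusted p = 0.934), and without mouse 2 the SD was 0.10. Of the 6 listed genes of the carnitine shuttle, 4 were measured and 0 were called. The plasma membrane carnitine transporter gene Slc22a5, with 9.33, 9.93, 9.22, 9.57 and 9.46, was the widest of them and was also highest in mouse 2. The carnitine palmitoyltransferase gene Cpt2, which acts next in the shuttle, had 12.03 to 12.21 and was highest in mouse 2 as well, as was Crat. Cpt1a, which forms the acylcarnitines, was highest in mouse 5 (11.75) and had an SD of 0.04.

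**Figure D3:**
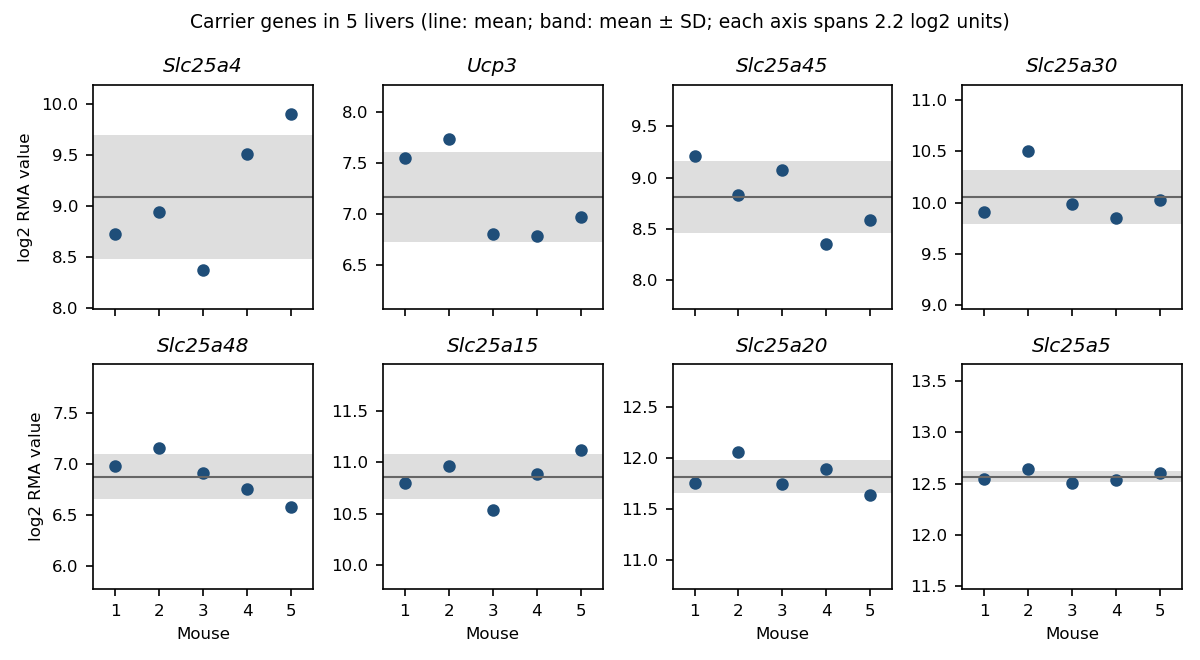
Log2 RMA values of 8 carrier genes in the livers of mice 1 to 5, with the mean as a line and the mean ± SD as a band, on axes of equal length. Slc25a4 shows the widest scatter, Ucp3 is high in mice 1 and 2, Slc25a30 and Slc25a20 are highest in mouse 2, and Slc25a5 hardly varies.

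The promoters of these 3 carriers are shown because Slc25a4 and Ucp3 had the widest spread and Slc25a20 and Ucp3 are known PPARA targets. Each runs from 250 bases before to 50 bases after the gene's start, 5′ to 3′ on the gene's strand, from RefSeq with build GRCm38.p6. Slc25a4 lies at chr8:46211013-46211312 (minus strand), Ucp3 at chr7:100472741-100473040 (plus strand) and Slc25a20 at chr9:108661886-108662185 (plus strand). Capitals mark AGGTCA, the half-site bound by PPARs and other nuclear receptors, searched on both strands.
Slc25a4: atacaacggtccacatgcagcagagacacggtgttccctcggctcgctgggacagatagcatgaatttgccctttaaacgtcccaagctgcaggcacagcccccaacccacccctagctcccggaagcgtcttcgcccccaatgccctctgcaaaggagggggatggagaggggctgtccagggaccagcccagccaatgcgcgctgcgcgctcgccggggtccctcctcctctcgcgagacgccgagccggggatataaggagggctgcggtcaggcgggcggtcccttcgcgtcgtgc
Ucp3: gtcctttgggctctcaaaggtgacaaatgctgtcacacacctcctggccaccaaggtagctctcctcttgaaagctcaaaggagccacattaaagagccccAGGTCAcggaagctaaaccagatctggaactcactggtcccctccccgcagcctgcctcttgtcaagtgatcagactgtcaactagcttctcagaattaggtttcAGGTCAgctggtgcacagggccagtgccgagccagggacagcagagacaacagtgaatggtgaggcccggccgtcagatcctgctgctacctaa
Slc25a20: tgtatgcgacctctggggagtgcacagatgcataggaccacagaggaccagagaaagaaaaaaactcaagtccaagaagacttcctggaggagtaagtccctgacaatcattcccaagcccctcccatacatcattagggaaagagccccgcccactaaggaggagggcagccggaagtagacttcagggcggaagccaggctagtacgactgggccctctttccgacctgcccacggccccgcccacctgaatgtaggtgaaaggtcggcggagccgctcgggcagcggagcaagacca
Ucp3 held 2 half-sites, beginning at positions -149 and -44 from the start, and the other promoters printed held 0. RefSeq promoters were matched for 38 of the 48 carriers (48 promoters, some genes having several). AGGTCA was found in 6 of these 48 promoters, those of Slc25a34, Slc25a39, Slc25a45, Slc25a47, Ucp1 and Ucp3, against 16.3% of all 32851 promoters. PPARs and their partner RXR bind a direct repeat of AGGTCA with 1 base between the copies. Its exact form was found in 0 of the 48 promoters and in 13 (0.0396%) of all 32851. Copies with changed bases were not searched for, so the 0 does not show that these promoters lack such elements. Each copy within such a repeat is also counted as a half-site. Letters in these windows describe the sequence alone.

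Carriers of amino acids were the largest class, with 10 of 11 genes tested and 0 called. Slc25a45, a relative of the basic amino acid carriers, had 9.22, 8.83, 9.07, 8.35 and 8.59 in mice 1 to 5. It was high in mice 1 and 3 and low in mice 4 and 5, a 1.82-fold span (SD 0.35, limma adjusted p = 0.386). Slc25a15, the ornithine carrier of the urea cycle, had 10.80, 10.96, 10.54, 10.89 and 11.13. Mouse 5 was highest and mouse 3 lowest (SD 0.22, limma adjusted p = 0.725), and without mouse 3 the SD was 0.14. Of 5 measured urea cycle enzyme genes 0 were called, and Otc, whose product uses the ornithine brought in by this carrier, had 10.77, 10.72, 10.93, 10.66 and 10.20. Otc, the widest of these enzyme genes, was lowest in mouse 5 and highest in mouse 3. The next widest, Asl, had 10.59, 10.43, 10.27, 10.27 and 10.03, also lowest in mouse 5. Cps1, of the first step, was lowest in mouse 3 (12.42), as Slc25a15 was, and had 12.54 in mouse 5. The urea cycle genes thus had no common order beside the carrier.

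The aspartate/glutamate carriers exchange aspartate for glutamate in the malate-aspartate shuttle. Slc25a13 (citrin), the form of liver, had 10.63, 10.58, 10.51, 10.61 and 10.52 in mice 1 to 5. This was the smallest SD of the 40 members (0.05), with a 1.09-fold span. Slc25a12 (aralar), the form of brain and muscle, had 8.73, 8.70, 8.47, 8.43 and 8.52, highest in mouse 1 (SD 0.14). Of the 4 shuttle enzyme genes Got1, Got2, Mdh1 and Mdh2, 0 were called, and their widest SD was 0.15 (Mdh2). The glutamate carrier Slc25a22 had 9.82, 9.78, 9.45, 9.52 and 9.70, with mouse 3 lowest (SD 0.16).

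Slc25a44, which imports branched-chain amino acids in brown fat of mice, had 9.53, 9.30, 9.18, 9.01 and 9.31 in mice 1 to 5. Mouse 1 was high and mouse 4 low (SD 0.19). Slc25a48, grouped here with the amino acid carriers and also described as a choline carrier, had 6.98, 7.16, 6.92, 6.75 and 6.58, highest in mouse 2 and lowest in mouse 5 (SD 0.22). Slc25a38, which brings glycine into mitochondria for heme synthesis, had 8.90, 8.98, 8.66, 8.71 and 8.66. Mice 1 and 2 lay above the others (SD 0.15).

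Iron for heme and iron-sulfur clusters enters through the mitoferrins. Slc25a37, the mitoferrin of the erythroid lineage, had 8.78, 8.63, 8.45, 8.38 and 8.67 in mice 1 to 5, highest in mouse 1 and lowest in mouse 4 (SD 0.16). Slc25a28, its widely expressed relative, reached 8.29 in mouse 2, where the others had 8.02 to 8.05. Of 9 listed genes of heme and iron-sulfur cluster synthesis, 8 were measured and 0 called. The widest were the 2 genes of the first step of heme synthesis. Alas2, the erythroid form, had 9.71, 8.91, 9.64, 8.48 and 8.73 in mice 1 to 5, and Alas1, the form of liver, had 11.86, 11.74, 10.76, 11.61 and 11.73. Alas2 was thus high in mice 1 and 3, and Alas1 was low in mouse 3. Of 3 erythroid markers measured, 2 exceeded the floor in all mice and Epb42 in none, and the mean level of the 3 lay between 6.70 and 7.24. The 2 tested ones were Slc4a1 and Alas2 itself, so their mean repeats in part the Alas2 values above. They deviated by 0.45, -0.13, 0.32, -0.33 and -0.30 in mice 1 to 5. Slc4a1 alone had 6.90, 6.55, 6.705, 6.565 and 6.38. Both the erythroid markers and Slc25a37 were highest in mouse 1, but Slc25a37 was below its mean in mouse 3 and above it in mouse 5, unlike these markers. Kupffer cell and macrophage markers, of which 8 of 9 measured exceeded the floor in all mice (mean level 8.57 to 9.19), deviated by 0.40, -0.16, -0.09, -0.22 and 0.08 in mice 1 to 5. Their mean too was highest in mouse 1, although Vsig4 was highest in mouse 5 (11.08, against 10.81 in mouse 1). Also highest in mouse 1 were 10 of the 40 tested members (25%), among them Slc25a12, Slc25a37, Slc25a44 and Slc25a45, against 23.9% of tested genes. The part of blood cells and macrophages in these values was not tested. The glutathione carrier gene Slc25a39 had 11.91, 11.85, 11.72, 11.71 and 11.96 (SD 0.11), with mouse 5 highest.

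Carboxylate carriers were even between the mice, with 4 of 4 genes tested, 0 called and a median SD of 0.09. Slc25a1, the citrate carrier that exports carbon for lipid synthesis, had 11.80, 11.65, 11.73, 11.59 and 11.67 in mice 1 to 5 (SD 0.08). The dicarboxylate carrier Slc25a10 had 11.95, 11.97, 11.70, 11.85 and 11.85 (SD 0.11, and 0.06 without mouse 3, the lowest). The oxoglutarate carrier Slc25a11, of the malate-aspartate shuttle, had 11.22, 11.13, 11.14, 11.04 and 11.04 (SD 0.08). Genes that use exported citrate had larger SDs, a difference that was not tested. Acly, which splits citrate in the cytosol, had 10.92, 10.59, 10.95, 10.14 and 10.20, and Fasn, of fatty acid synthesis, spanned 2.15-fold, whereas Slc25a1 spanned 1.15-fold. All 3 genes were lower in mice 4 and 5 than in mice 1 and 3, but they differed in mouse 2. There Slc25a1 (11.65) was below its value in mouse 5, while Acly (10.59) and Fasn (11.67) were above theirs in mice 4 and 5. Mouse 4 was also the lowest for 36.5% of all tested genes. Of the 5 genes of this list 0 were called.

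Carriers of nucleotides and cofactors had 8 measured genes, all tested and 0 called, with a median SD of 0.14. Slc25a42, which imports coenzyme A, had 9.96, 10.05, 10.03, 9.80 and 9.90 in mice 1 to 5 (SD 0.10). Slc25a25, a calcium-regulated ATP-Mg/phosphate carrier, had 8.93, 9.38, 9.23, 9.05 and 9.11, with mouse 1 lowest and mouse 2 highest (SD 0.17). Slc25a41, of the same branch, had 5.76, 6.05, 5.98, 5.69 and 5.68 (SD 0.17) and was below the floor in mice 4 and 5. Another member of that branch, Slc25a24, had 6.52 in mouse 5 and 5.34 to 5.74 in the others. It was singled out after its values were seen, and its mean of 5.74 lay below the cut for testing.

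Slc25a47, a carrier found mainly in liver, had 11.35, 11.40, 11.29, 11.54 and 11.62 in mice 1 to 5, with mice 4 and 5 highest (SD 0.14). The orphan carrier Slc25a34 had 6.87, 7.06, 6.72, 6.82 and 7.16 (SD 0.18), highest in mouse 5 and lowest in mouse 3. The other 16 tested members were Slc25a16, Slc25a17, Slc25a18, Slc25a21, Slc25a23, Slc25a26, Slc25a28, Slc25a29, Slc25a32, Slc25a33, Slc25a35, Slc25a36, Slc25a40, Slc25a43, Slc25a46 and Slc25a51. Their SDs lay between 0.06 and 0.17 and their spans between 1.10-fold and 1.32-fold. Among them are Slc25a17, a peroxisomal cofactor carrier (11.05 in mouse 2, 10.68 to 10.81 in the others), and Slc25a51, the NAD carrier, lowest in mouse 1 (8.76) and highest in mouse 4 (9.09).

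Across the family, mouse 2 stood high and mouse 3 low. Of the 40 tested members 17 (42.5%) were highest and 0 were lowest in mouse 2, against 25.5% and 11.4% of tested genes. In mouse 3, 13 (32.5%) were lowest and 2 (5.0%) highest, against 18.9% and 22.9% of tested genes. Mouse 4 was lowest for 15 members (37.5%), close to the 36.5% of tested genes. The mean deviation of the members was 0.03, 0.11, -0.07, -0.06 and -0.0047 in mice 1 to 5, and that of tested genes was 0.03, 0.03, 0.0036, -0.06 and -0.0014. The largest of these shifts is about 0.1 on the log2 scale. With quantile normalization 15 members were highest in mouse 2, and with each array centred on its median 20, in a setting where 35.8% of tested genes were highest there. No test of the family as a list was made.

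**Figure D4:**
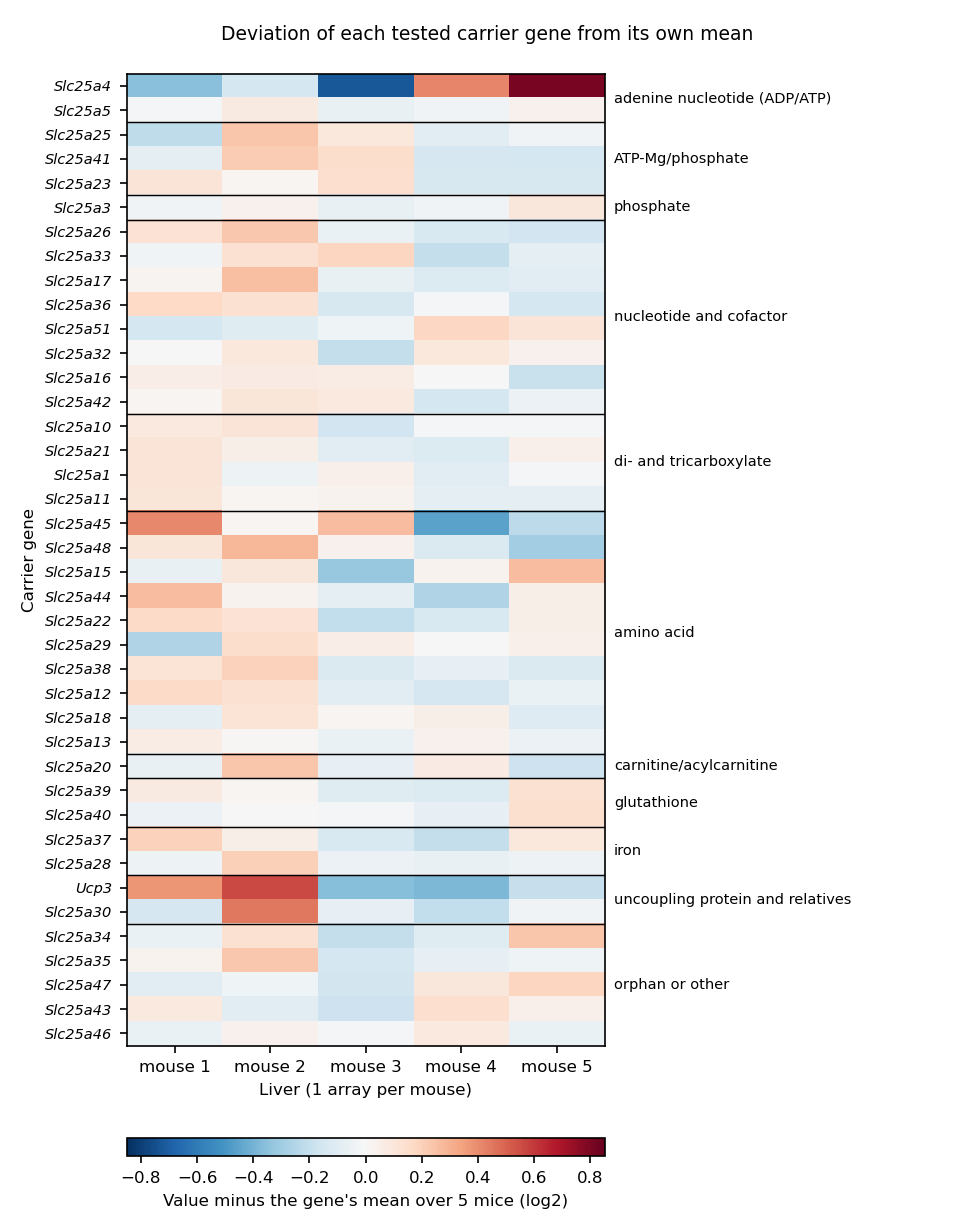
Deviation of each of the 40 tested carrier genes from its own mean over the 5 mice (log2, colour), with genes in rows grouped by what they carry and mice in columns. The column of mouse 2 holds 17 of the highest values and no lowest value, and Slc25a4, Ucp3, Slc25a45 and Slc25a30 have the strongest colours.

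Other genes of mitochondrial transport, not among the 48 members chosen by symbol, were also high in mouse 2 by a like amount. Of 13 listed genes that import carriers into the inner membrane (the TIM22 complex, the small TIM chaperones and the outer membrane gate), 12 were measured and tested and 0 called. Their mean deviation reached 0.12 in mouse 2 and lay between -0.05 and -0.0034 elsewhere, with Timm22 (SD 0.18) and Agk (0.18) widest. Of 22 listed genes of other mitochondrial membrane transport, such as the pyruvate carrier subunit Mpc1 and the channel genes Vdac1 to Vdac3, 19 were measured, 18 tested and 0 called. Their mean deviation reached 0.11 in mouse 2 and lay between -0.08 and 0.03 elsewhere. Abcb10, a transporter of the inner membrane, was widest with 8.02, 7.83, 8.02, 7.40 and 7.39 in mice 1 to 5, and Abcb8 followed (SD 0.20). The median SDs of these lists were 0.11 and 0.11, close to the 0.12 of all tested genes. Marker lists of other cells did not share the high value in mouse 2 except that of cholangiocytes (0.14). Endothelial markers deviated by -0.01 there.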

How the data were processed

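The authors deposited 1 log2 value per probe set and array, made with RMA and Affymetrix Expression Console 1.2 per the submitters' processing notes, with order and settings not given in the sources used here. RMA corrects background, aligns the arrays and summarises probes, so small differences near background are compressed. Of 35556 probe sets, 21789 had 1 symbol, 1621 several and 12146 none. Of the 21789, 21698 matched the RefSeq table of GRCm38.p6 by gene ID, which changed 0 symbols. At most 0.537% of values were identical between 2 arrays. The Pearson correlation between arrays was lowest for mouse 4 with mice 1 and 2 (0.971 and 0.972). It was 0.981 (mice 3 and 4) to 0.993 (mice 1 and 2) for the other pairs.

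Intercept-only models were fitted with limma 3.58.1 and statmod 1.5.0 in R 4.3.3 to probe sets with 1 symbol and a mean above 5.77, the 95th percentile of receptor probe set means. The variance on 4 residual degrees of freedom was compared with the fitted one (fitFDistRobustly, mean as covariate, prior degrees of freedom 6.21) by an upper-tail F test. Its p-values were adjusted by Benjamini-Hochberg at 0.05. The test was tried on simulated data with large rises in SD only, so how often smaller rises are missed is not known. Summaries used Python 3.11.15, numpy 2.4.6 and pandas 2.3.3. The number of arrays limits the precision.

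The members and lists were chosen with earlier results of these data known. Values per mouse are given for 22 genes fixed by role, except Ucp2, and for the 10 tested members with the largest SD. They were also to be given for members that passed, of which there were 0. Alternatives were other normalizations, filters, variance fits and probe set summaries, and leaving out each mouse.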

Additional observations from a re-analysis of the deposited data

Results flagged for a closer look

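In 4 of the 48 carrier genes (8.33%), 1 mouse stood apart from the other 4 by a gap of more than 0.71 of the gene's whole range (Dixon's 95% critical value for 5 values). The same holds for 6.39% of all 19938 genes, and chance flags about 1 in 20 groups of values. Slc25a28 (mitoferrin) was 8.286 in mouse 2, against 8.02 to 8.05 in the others. Slc25a30 was 10.505 in mouse 2, against 9.85 to 10.03 in the others. Slc25a16 was 10.116 in mouse 5, against 10.30 to 10.37. Slc25a31 was 4.247 in mouse 5, against 4.41 to 4.46, all below the brightness floor.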

How the results depend on the processing

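The number of tested carrier genes with variance above that expected was 0 under all alternatives except 1, centring each array on its median, under which it was 1 (Slc25a4, limma adjusted p = 0.0178). It was 0 without any single mouse, also without mouse 4, where limma called 0 of all probe sets (864 at an unadjusted p under 0.05). The number at an unadjusted p under 0.05, 5 as reported, was 3 when all probe sets with or without 1 symbol were fitted and 3 without the trend on level, and lay between 4 and 6 without 1 mouse. The calls over all probe sets, 52 as reported, were 142 with centred arrays, 18 without the robust step, 24 without the trend, 29 with the filter on all arrays, 31 with the mean over probe sets, 34 without mouse 2, 30 without mouse 3, 0 without mouse 4 and 0 with all probe sets (1385 at an unadjusted p under 0.05). The cause was not tested. Of 311 values of single genes, 310 stayed on the same side of the threshold, and the 1 that moved was of Slc25a4. The other named tested members had a limma adjusted p of 0.282 or more as reported. They were thus far from the threshold, and this count says little about stability. The median SD of the members lay between 0.13 and 0.14 without 1 mouse. Carriers above the floor in all mice numbered 30 at the 99th percentile. The SD of 5 of 24 named tested members was over 1.5 times that without 1 mouse, of which Slc25a30 without mouse 2 changed most. The scalings for the mouse with the highest value were added after the data were seen. No paired analysis was possible because there is 1 group. Arrays carry no count, so signal near the floor limits Slc25a41, Slc25a18 and the 8 untested members. Below the floor at the 99th percentile also lay Ucp3 and Slc25a34 in mouse 4, and Slc25a48 in mice 4 and 5. Slc25a29, Slc25a35, Slc25a36, Slc25a40 and Slc25a43 exceeded that floor in at most 1 mouse. The limit therefore holds for these genes too.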
